A study of Mus musculus with 14 samples.

Results

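The imprinted Dlk1-Dio3 miR cluster lies on mouse chromosome 12 and was followed on miR arrays of the left ventricle (LV). Its members were the probes for miRs whose precursors lie between Dlk1 and Dio3, in the maternally expressed noncoding transcripts Meg3, Rtl1 antisense, Rian and Mirg. The list holds 51 precursors, and 101 of the 1037 mouse probes on the arrays belong to them. A RefSeq hairpin within the locus was found for 49 of the 51, and the position of the others was not checked. Of these 101 probes, 38 from 30 precursors were among the 520 mouse miRs that the authors kept as above their detection threshold and that were tested here. The other 63 were under the threshold and entered no test.

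The arrays cover 3 groups of male C57Bl/6 mice aged 3 to 4 months, with 1 array per mouse. The HF+E2 group holds 5 mice with heart failure (HF) that then received estradiol (E2) from a pellet under the skin at 0.03 mg/kg per day for 10 days. The HF group holds 5 mice with HF reached 6 to 8 weeks after transverse aortic constriction (TAC), a banding of the aorta that loads the left ventricle with pressure. The sham group holds 4 mice with sham surgery. The labels name no pellet without estradiol, and the HF mice were killed once HF was reached, so that estradiol and the additional days with HF cannot be told apart. All RNA came from whole left ventricle and not from sorted cells. Fewer cells of a type and less RNA per cell can therefore not be told apart.

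An imprinted gene is expressed from the copy of one parent only. In the Dlk1-Dio3 region the protein-coding genes Dlk1, Rtl1 and Dio3 are expressed from the paternal copy, and the noncoding transcripts and the miRs within them from the maternal copy. The miRs are thought to be cut from long transcripts that run through the region in a single direction, and they are known for high levels in the embryo, the placenta and the adult brain. The miRs of the Rtl1 antisense segment are fully complementary to the Rtl1 mRNA that is made from the other strand, and miR-127 and miR-136 were described to guide its cleavage in mice. The Mirg segment, with the transcript stretch before it that begins with miR-379 and ends with miR-410, holds most of the precursors of the region. In mouse skeletal muscle, transcription of the region has been tied to the factor MEF2A. A miR acts mostly through its seed, the bases 2 to 8 from its 5′ end, which pair with the mRNAs it represses.

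The sequences of the members that were called in at least 1 comparison below are printed 5′ to 3′ with the seed in capitals, since the seed sets which mRNAs a miR can pair with. The asterisk is the older mark for the arm of a precursor that was found less often. The first 5 lie antisense to Rtl1 and follow their order along the chromosome.
miR-433*: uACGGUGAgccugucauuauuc
miR-127: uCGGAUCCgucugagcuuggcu
miR-434-5p: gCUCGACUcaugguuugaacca
miR-434-3p: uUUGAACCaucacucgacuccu
miR-136: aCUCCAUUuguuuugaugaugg
The next 7 come from the Mirg segment.
miR-379: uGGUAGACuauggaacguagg
miR-411*: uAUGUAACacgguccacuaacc
miR-299*: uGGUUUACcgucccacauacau
miR-376b*: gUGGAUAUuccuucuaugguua
miR-382: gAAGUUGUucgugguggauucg
miR-541: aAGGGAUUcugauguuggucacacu
miR-412-3p: uUCACCUGguccacuagccg
For the arms, the opposite strands of 3 of these precursors are given, and miR-376a as the member closest to miR-376b.
miR-411: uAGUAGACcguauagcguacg
miR-299: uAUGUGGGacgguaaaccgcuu
miR-376b: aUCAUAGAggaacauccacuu
miR-376a: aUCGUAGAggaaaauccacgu
All 38 tested members matched a mature sequence of RefSeq (GRCm38.p6) on the plus strand of chromosome 12, and 36 of the 38 deposited sequences were equal to it over their whole length. No seed was shared by any pair of the 38, so that the members cannot be grouped by seed. miR-376b and miR-376a differ at 3 of 21 positions, and miR-300 and miR-381 at 3 of 22 positions. Cross-hybridization within these 2 pairs was not tested.

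In RefSeq, Meg3 spans chr12:109540996-109571729 and Mirg spans chr12:109734981-109749458. miR-127 (chr12:109592888-109592909) lies 51.9 kb from the start of Meg3, within the span of Rtl1 on its opposite strand, with both arms of miR-434 (chr12:109594528-109594549 and chr12:109594565-109594586) next to it. miR-379 (chr12:109709065-109709085), miR-411* (chr12:109710225-109710246) and miR-299* (chr12:109710644-109710665) lie side by side about 168.1 to 169.6 kb from the start of Meg3, in none of the annotated spans of Meg3, Rtl1, Rian and Mirg. miR-382 (chr12:109733781-109733802) also lies before the start of Mirg, and miR-541 (chr12:109742422-109742446) and miR-412-3p (chr12:109743340-109743359) lie within it. Exons and introns were not assigned.

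The values are the scaled log2 intensities that the authors deposited, in which 1 constant per array was added to the log2 of the mean of the 3 spots. A miR with a mean under 2 log2 units over the mean of the detection thresholds (5.49) is named dim. Of the 38 tested members, 26 were dim, 12 were not, and 0 were saturated on any array. The negative control probes, which match no miR, averaged 4.62 ± 0.11 in HF+E2, 3.85 ± 0.27 in HF and 4.64 ± 0.22 in sham (SD, n = 5, 5 and 4), so that the deposited scale places the background of the HF arrays lower. The authors' constant averaged 0.17, -0.45 and 0.34 in the same order. All sham arrays carry 1 array code that no other group has, so that this code and sham cannot be told apart. HF 5 shares a code with HF+E2 1 to 3, HF 1 to 4 share another, and HF+E2 4 and 5 a further one. Within these codes, HF 2 and HF+E2 1 carry 650 where the other arrays carry 600. Nothing in the labels names litters or extraction days, and p-values measure the spread between the mice of a group.

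To find out which members of the cluster differ in HF, the HF arrays were compared with the sham arrays. Members were called in both directions, and those called among the better measured ones were all higher in HF. Of the 12 members that were not dim, 5 were called higher (miR-379, miR-434-3p, miR-299*, miR-127 and miR-541) and 0 lower, and their median log2 fold change was 0.50, against -0.02 over the 255 tested miRs without dim or saturated probes. The calls use limma with Benjamini-Hochberg adjustment over the 520 miRs, an adjusted p under 0.05 and a change beyond 0.5 log2 units. Of those 255 miRs, 12.2% were called higher and 7.45% lower, against 41.7% and 0% of the 12 members. At an unadjusted p under 0.05, limma placed 9 of the 12 members higher and 0 lower. This count was not made over the 255 miRs or over all 520, so it has no share to be compared with. The sizes of the called differences were modest, between 1.43-fold for miR-541 and 1.83-fold for miR-379.

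Over all 38 tested members, 8 were called higher and 2 lower. Of all 520 tested miRs, 8.46% were called higher and 18.3% lower, against 21.1% and 5.26% of the members. In either direction the share of the members (26.3%) was close to that of all miRs (26.7%). The median log2 fold change was 0.29 over the members and -0.13 over all tested miRs, and 26 of 38 members lay above 0, against 36.0% of all miRs. The negative control probes had a median of -0.76 in this comparison, and the 26 dim members a median of 0.09, against -0.27 over all dim miRs. The part of the background in the values of the dim members was not tested.

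**Figure D1:**
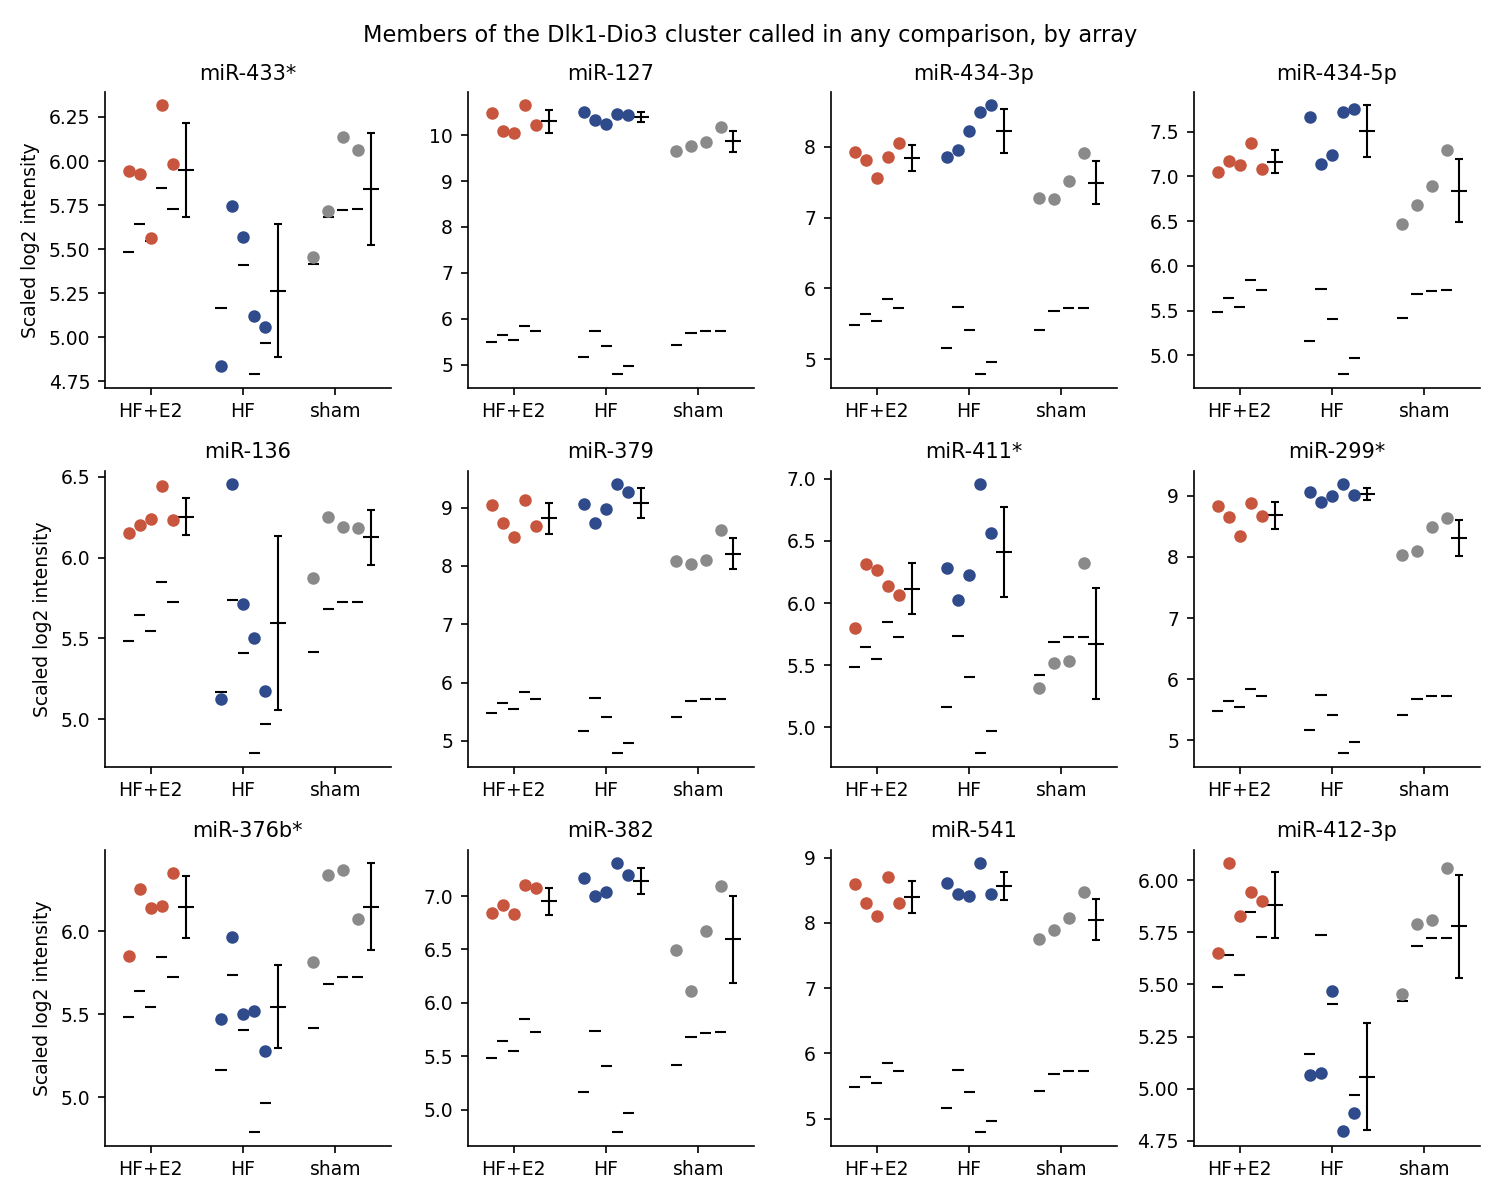
Scaled log2 intensity (vertical axis) of the 12 members called in at least 1 comparison, with 1 point per array in HF+E2, HF and sham hearts. Crossbars are means with SD (n = 5, 5 and 4), and the short black dashes are each array's own detection threshold. All 5 HF points of miR-379, miR-299* and miR-127 lie above all 4 sham points, while miR-433*, miR-136, miR-376b* and miR-412-3p lie close to the threshold.

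miR-379, the first precursor of the Mirg segment, had the largest log2 fold change of all tested members. It read 9.04, 8.74, 8.50, 9.12 and 8.68 in HF+E2, 9.05, 8.74, 8.97, 9.40 and 9.27 in HF and 8.08, 8.04, 8.11 and 8.62 in sham. All HF arrays lay above all sham arrays, and sham 4 lay apart from the other 3 sham arrays. The means were 9.09 ± 0.26 in HF and 8.21 ± 0.27 in sham (SD, n = 5 and 4), and miR-379 rose 1.83-fold in HF (log2 fold change 0.87, SE 0.18, limma adjusted p = 0.0039, exact permutation p = 0.0079, two-sided). An exact permutation p of 0.0079 is the smallest that 5 arrays against 4 allow. In unscaled intensities, miR-379 averaged 766 in HF and 239 in sham, a difference of 1.66 on the log2 scale before the constants of the arrays were added. The median difference over all 520 tested miRs was 0.66 in these unscaled values.

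miR-299*, less than 2 kb downstream of miR-379, read 8.84, 8.65, 8.34, 8.89 and 8.68 in HF+E2, 9.06, 8.90, 8.99, 9.18 and 9.01 in HF and 8.03, 8.09, 8.49 and 8.63 in sham. The HF arrays were again all above the sham arrays, and they also lay all above the HF+E2 arrays. miR-299* rose in HF with a log2 fold change of 0.72 (SE 0.16, limma adjusted p = 0.0060, exact permutation p = 0.0079). miR-127, the brightest member, read 10.48, 10.10, 10.05, 10.65 and 10.22 in HF+E2, 10.51, 10.32, 10.24, 10.46 and 10.43 in HF and 9.66, 9.77, 9.85 and 10.17 in sham. HF and sham did not overlap here either, with means of 10.39 ± 0.11 in HF and 9.86 ± 0.22 in sham (SD, n = 5 and 4), and the log2 fold change was 0.53 (SE 0.14, limma adjusted p = 0.0167). These 3 were the only members of the 38 without overlap between HF and sham, and 7.89% of the members and 7.88% of all tested miRs were higher in HF without overlap.

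Both arms of miR-434, which lies between miR-127 and miR-136, were called higher. miR-434-3p read 7.93, 7.81, 7.56, 7.86 and 8.04 in HF+E2, 7.86, 7.96, 8.22, 8.49 and 8.58 in HF and 7.28, 7.26, 7.51 and 7.91 in sham. Only HF 1 lay within the range of the sham arrays, and the log2 fold change was 0.73 (SE 0.20, limma adjusted p = 0.0173, exact permutation p = 0.0238). The 5p arm, which is dim, read 7.05, 7.17, 7.13, 7.38 and 7.08 in HF+E2, 7.66, 7.14, 7.23, 7.72 and 7.75 in HF and 6.47, 6.68, 6.89 and 7.30 in sham. Its groups overlapped through HF 2, HF 3 and sham 4, and its log2 fold change was 0.67 (SE 0.20, limma adjusted p = 0.0271, exact permutation p = 0.0397).

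The other 3 members called higher lie in the Mirg segment. miR-541 read 8.59, 8.31, 8.10, 8.71 and 8.30 in HF+E2, 8.62, 8.45, 8.42, 8.91 and 8.44 in HF and 7.76, 7.89, 8.07 and 8.47 in sham, with overlap through sham 4 (log2 fold change 0.52, SE 0.17, limma adjusted p = 0.0431). miR-382, which is dim, read 6.84, 6.91, 6.83, 7.10 and 7.07 in HF+E2, 7.17, 7.00, 7.03, 7.31 and 7.19 in HF and 6.50, 6.11, 6.67 and 7.09 in sham, again with overlap through sham 4 only (0.55, SE 0.18, limma adjusted p = 0.0431). miR-411*, dim as well, read 5.80, 6.31, 6.26, 6.14 and 6.07 in HF+E2, 6.28, 6.02, 6.22, 6.96 and 6.56 in HF and 5.32, 5.52, 5.54 and 6.32 in sham, where 1 of 4 arrays was above its threshold (0.74, SE 0.24, limma adjusted p = 0.0359). In each of the 8 members called higher, sham 4 was the highest sham array, and on this array 38 of 38 tested members were above the threshold, against 34 to 35 on the other sham arrays.

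The 2 members called lower in HF were both dim. miR-412-3p read 5.65, 6.08, 5.83, 5.95 and 5.90 in HF+E2, 5.07, 5.08, 5.47, 4.80 and 4.88 in HF and 5.45, 5.79, 5.81 and 6.06 in sham. It was above the threshold on 2 of 5 HF arrays and on all sham arrays, and its log2 fold change was -0.72 (SE 0.17, limma adjusted p = 0.0093). miR-376b* read 5.85, 6.25, 6.14, 6.15 and 6.35 in HF+E2, 5.47, 5.96, 5.50, 5.52 and 5.28 in HF and 5.81, 6.34, 6.37 and 6.07 in sham, with a log2 fold change of -0.60 (SE 0.17, limma adjusted p = 0.0236). Both differences were close to that of the negative controls (-0.76). Before scaling, the difference between HF and sham was 0.07 for miR-412-3p (exact permutation p = 0.54) and 0.19 for miR-376b* (exact permutation p = 0.44). Neither was lower in HF in unscaled intensity, but the median over all 520 tested miRs was 0.66 there, and both lay below it.

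The count of members depended on the scaling and on single mice. The split of members called higher and lower was 8 and 0 after quantile normalization of the scaled values, 9 and 0 after quantile normalization of the raw intensities, 14 and 0 with the negative controls subtracted, 16 and 1 or 2 and 1 with the 75th percentile of all or of the detected probes, and 26 and 0 with no scaling. Over all 520 miRs the split was 44 and 95 as deposited, 45 and 32 or 45 and 31 after quantile normalization of the scaled values or of the raw intensities, 63 and 62 with the negative controls subtracted, 72 and 49 or 28 and 56 with the 75th percentile of all or of the detected probes, and 244 and 0 with no scaling. The share called higher with no scaling was 68.4% of the members and 46.9% of all miRs, and with the 75th percentile of the detected probes it was 5.26% of the members and 5.38% of all miRs. Leaving out 1 array gave 3 members without sham 2, 4 without HF 1, 5 without sham 3 and 6 without HF 4. In this order, 5.26%, 7.89%, 10.5% and 10.5% of the members were higher, against 7.31%, 7.5%, 6.54% and 7.31% of all miRs. Lower were 2.63%, 2.63%, 2.63% and 5.26% of the members, against 13.3%, 12.9%, 12.7% and 13.7% of all miRs. Without HF 2 it gave 16, of which 9 were higher and 7 lower. These are 23.7% and 18.4% of the members, against 8.65% and 23.7% of all miRs. miR-379 and miR-299* were called under each of their 22 alternatives, with lowest log2 fold changes of 0.80 and 0.62. For the other 6 members called higher, between 2 (miR-434-3p) and 12 (miR-541) of 21 or 22 alternatives ended the call.

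**Figure D2:**
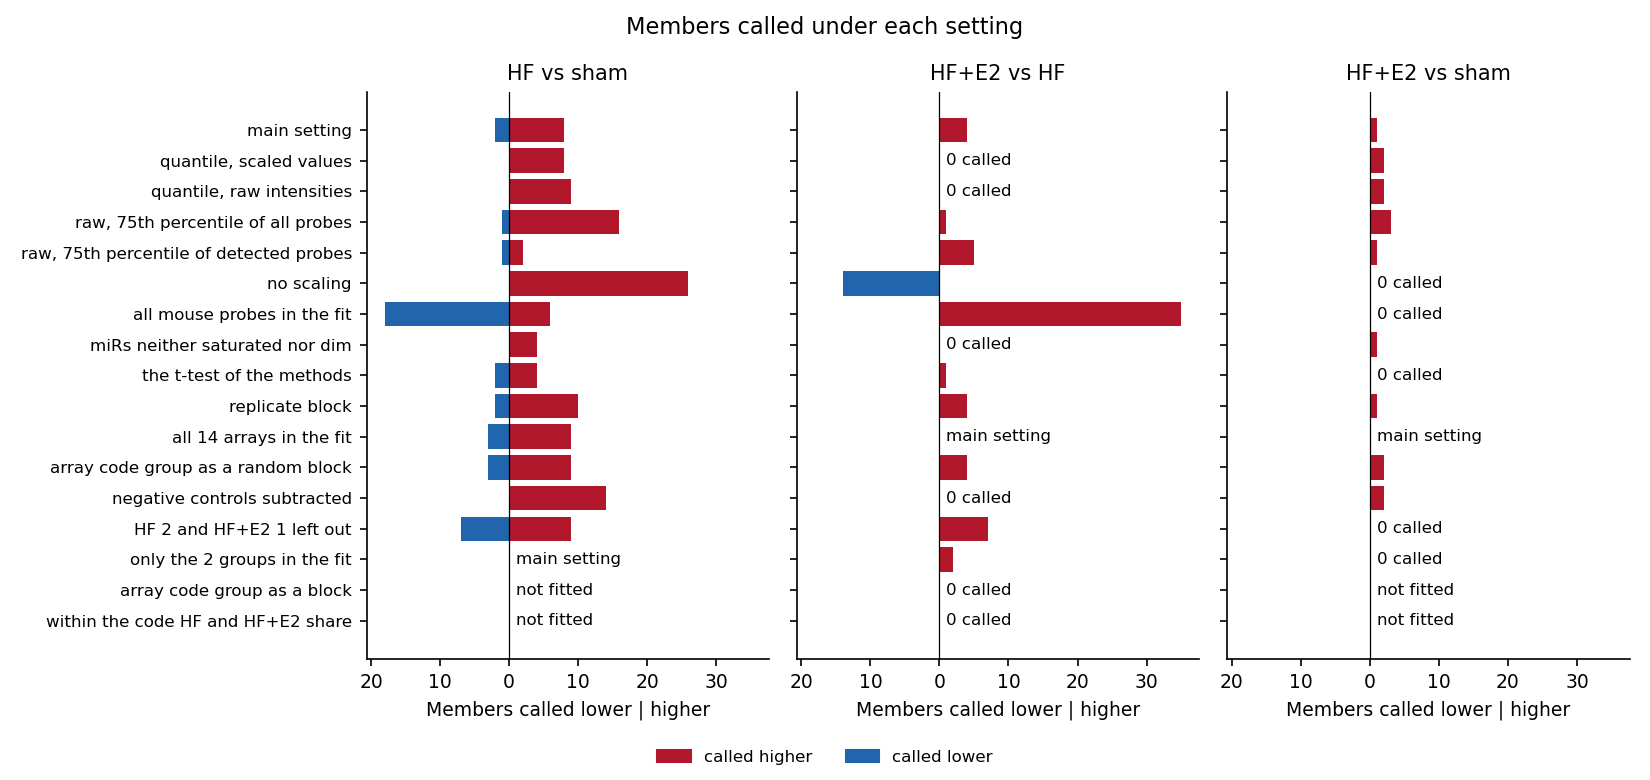
Number of members called higher (red, to the right) and lower (blue, to the left) under each setting (rows), for the 3 comparisons. In HF vs sham the red bars range from 2 to 26 members, and in HF+E2 vs HF the bar turns from 4 red to 14 blue with no scaling. A setting is marked as not fitted where the code of the array cannot be separated from the groups.

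**Figure D3:**
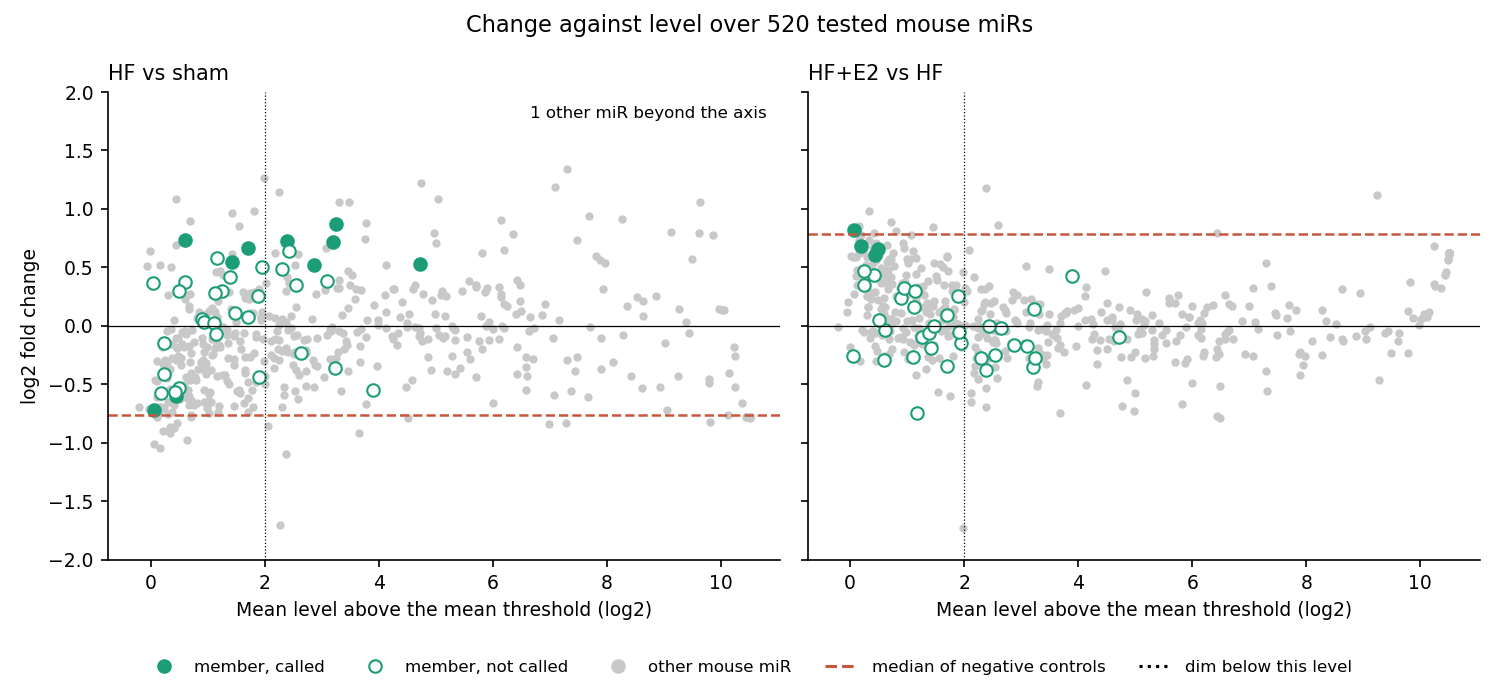
log2 fold change (vertical axis) against the mean level above the mean threshold (horizontal axis, log2) for the 38 members (green, filled where called) and the other mouse miRs (grey) of the 520 tested, in HF vs sham (left) and HF+E2 vs HF (right). The dashed line is the median of the negative controls, at -0.76 on the left and 0.79 on the right, and members to the left of the dotted line are dim. 5 of the 12 members right of that line are filled on the left and 0 on the right.

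Along the locus, the called members fell into 2 segments. In the Mirg segment, 23 of 72 probes were tested, and 5 were called higher and 2 lower, with a median log2 fold change of 0.35 and 17 of 23 above 0. In the Rtl1 antisense segment, 8 of 12 probes were tested, and 3 were called higher and 0 lower, with a median of 0.03 that spans miR-433* at -0.58 and miR-434-3p at 0.73. The stretch from Meg3 to miR-665 had 3 tested members (miR-770-5p, miR-337-5p and miR-337-3p) between -0.07 and 0.37, and the Rian segment had 4 (miR-341, miR-341*, miR-1188* and miR-882) between -0.55 and 0.58, none of them called. Both arms of miR-337 lie past the annotated end of Meg3, within the span of Rtl1 and next to miR-665, and miR-882 lies past the end of Rian. The difference between segments was not tested.

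**Figure D4:**
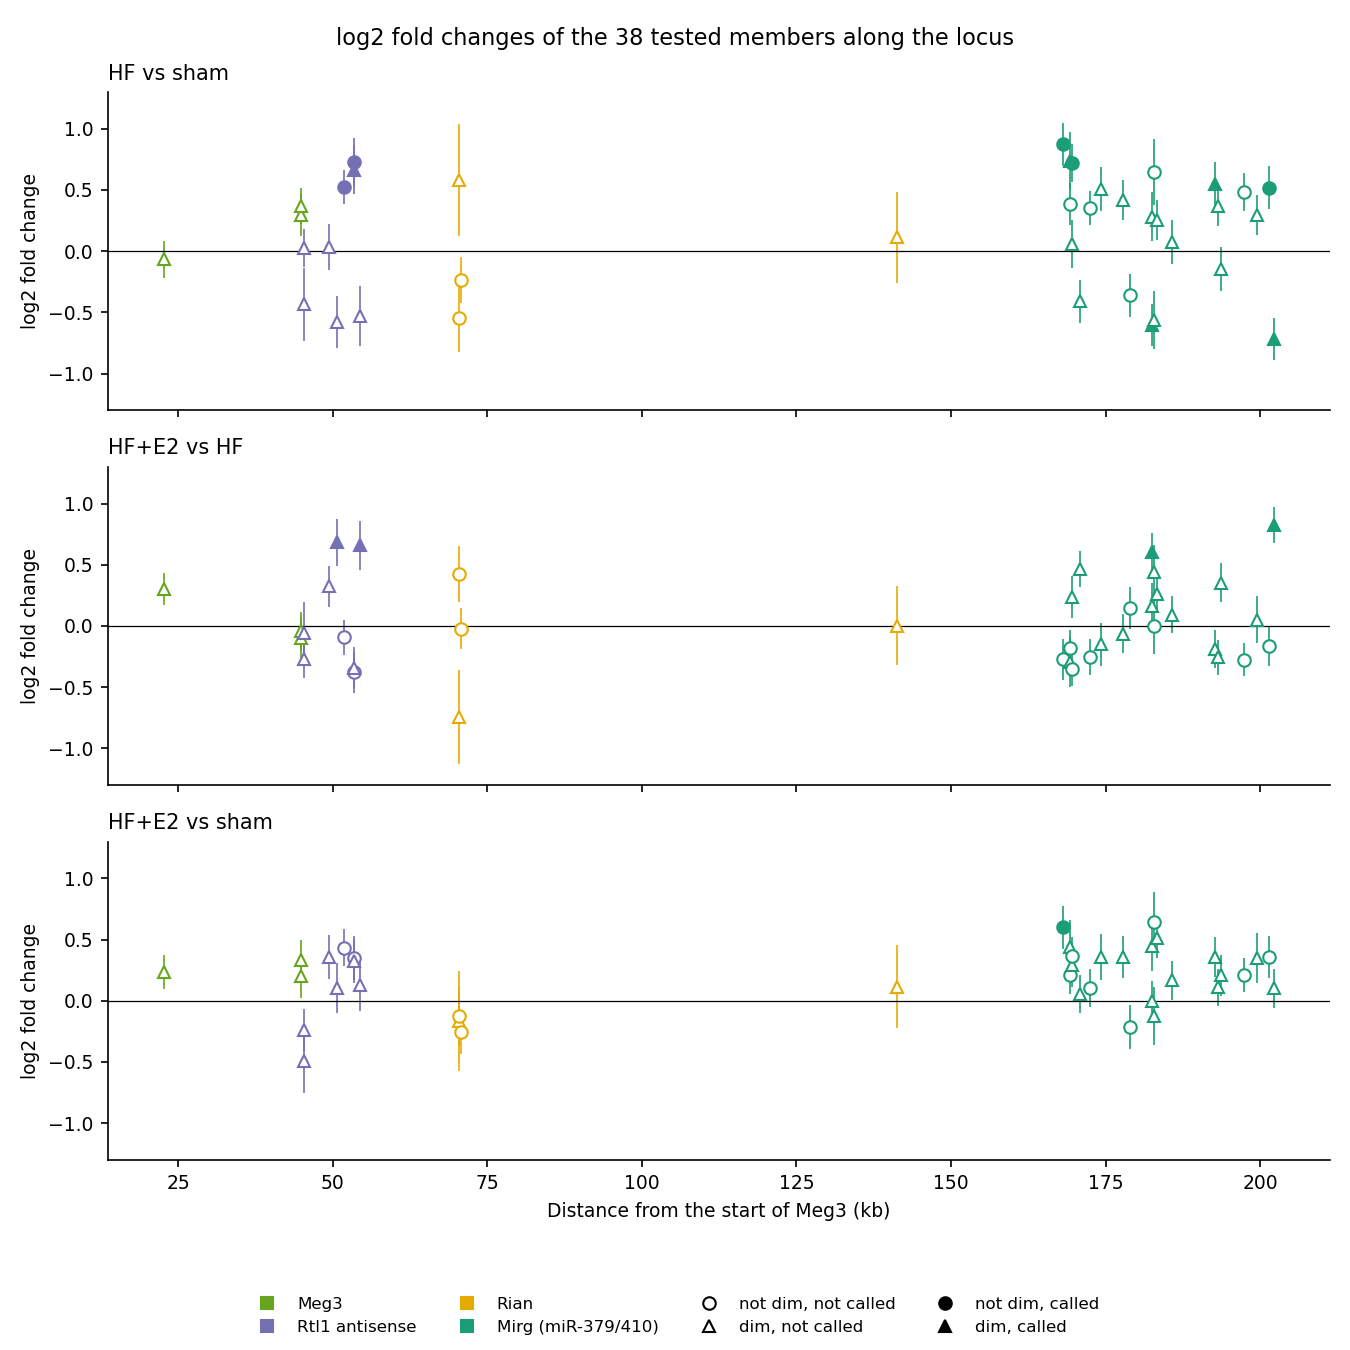
log2 fold change with SE (vertical axis) of each of the 38 tested members against its distance from the start of Meg3 (horizontal axis, kb), for the 3 comparisons from top to bottom. Colours mark the segments, circles are members that are not dim, triangles are dim, and filled symbols are called. The filled circles in HF vs sham lie in the Rtl1 antisense and Mirg segments, and the 4 filled symbols in HF+E2 vs HF are all triangles.

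Among the 28 members not called between HF and sham, miR-154, miR-376a, miR-411 and miR-329 had log2 fold changes of 0.48, 0.64, 0.39 and 0.35 in HF vs sham. miR-154 passed the adjusted p (0.0398, limma) but not the fold, and the other 3 had adjusted p of 0.093, 0.111 and 0.073. miR-494 (0.50) and miR-495 (0.42), both dim, had adjusted p of 0.0537 and 0.0728. Of the 12 members that were not dim, 3 lay below 0, namely miR-341* (-0.55), miR-667 (-0.36) and miR-1188* (-0.23), with adjusted p between 0.132 and 0.378. miR-134, which limits the size of dendritic spines in rat neurons, was above the threshold on 1 of 5 HF+E2 arrays, 5 of 5 HF arrays and 1 of 4 sham arrays. It was kept among the tested miRs through the HF arrays only, the group where it is high. Its log2 fold change of 0.37 in HF vs sham is therefore given as a description, without a test.

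The Rian member miR-341 read 6.43, 6.61, 6.50, 6.42 and 5.76 in HF+E2, 7.46, 6.48, 8.59, 7.23 and 5.69 in HF and 6.08, 6.83, 6.53 and 6.61 in sham. The HF arrays spread above and below both other groups, and the SD was 0.33 in HF+E2, 1.09 in HF and 0.32 in sham. The SD in HF was the largest of any tested member in any group. miR-341 differs from its opposite arm miR-341* by 6 single-base changes over 21 bases, and which arm the signal belongs to was not tested.

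For 8 precursors both arms were tested. The 2 arms of miR-434 and of miR-337 had similar log2 fold changes in HF vs sham (0.67 and 0.73 for miR-434-5p and miR-434-3p, 0.37 and 0.30 for miR-337-5p and miR-337-3p). For miR-299 the arms lay apart, with 0.72 for miR-299* and 0.06 for miR-299, which read 6.62, 6.52, 6.29, 6.89 and 6.45 in HF+E2, 6.32, 6.30, 6.07, 6.29 and 6.61 in HF and 5.66, 6.40, 6.42 and 6.56 in sham. For miR-411 both lay above 0, at 0.74 for miR-411* and 0.39 for miR-411, which read 8.73, 8.58, 8.47, 8.62 and 8.54 in HF+E2, 8.85, 8.43, 8.79, 9.02 and 8.73 in HF and 8.32, 8.06, 8.34 and 8.77 in sham. The arms of miR-376b (0.28 for miR-376b and -0.60 for miR-376b*) and of miR-376a (0.64 for miR-376a and -0.56 for miR-376a*) had opposite signs, and in both the arm below 0 was the dimmer one. For miR-341 and miR-665 the arm with the lower value was instead the brighter one, with 0.58 for miR-341 and -0.55 for miR-341*, which is not dim, and with 0.03 for miR-665 and -0.43 for miR-665*. The differences between arms were not tested, and the dimmer arm of each of the 8 pairs lies within 2 log2 units of the threshold.

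The HF+E2 arrays were then compared with the HF arrays for the change with estradiol. 4 members were called higher in HF+E2 and 0 lower, and all 4 were dim. Of all 520 tested miRs, 11.2% were called higher and 0.962% lower, against 10.5% and 0% of the members. Among the 12 members that were not dim, 0 were called in either direction, against 0.392% higher and 1.57% lower of the 255 miRs measured as well. At an unadjusted p under 0.05, limma placed 7 members higher and 2 lower, a count not made over all miRs. Among the 7 is miR-380-3p, which was kept among the tested miRs through the HF+E2 arrays only, the group where it is high. The methods' t-test called 1 member higher and 0 lower (2.63% and 0%), against 0.769% and 0.192% of all 520 miRs. The median log2 fold change was -0.03 over the members and 0.06 over all tested miRs, 18 of 38 members lay above 0, against 58.8% of all miRs, and the negative controls had a median of 0.79.

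The 4 were miR-412-3p and miR-376b*, whose values stand above, and miR-433* and miR-136 of the Rtl1 antisense segment. miR-412-3p was 1.77-fold higher in HF+E2 (log2 fold change 0.82, SE 0.15, limma adjusted p = 0.0085) without overlap between the groups, as were 4.04% of all tested miRs, and miR-376b* was 1.52-fold higher (0.60, SE 0.15, limma adjusted p = 0.0295). miR-433* read 5.94, 5.93, 5.56, 6.32 and 5.99 in HF+E2, 4.84, 5.74, 5.57, 5.12 and 5.06 in HF and 5.46, 5.71, 6.14 and 6.07 in sham (HF+E2 vs HF 0.68, SE 0.19, limma adjusted p = 0.0419). miR-136 read 6.15, 6.20, 6.24, 6.45 and 6.23 in HF+E2, 5.13, 6.45, 5.71, 5.51 and 5.17 in HF and 5.87, 6.25, 6.19 and 6.18 in sham (0.66, SE 0.20, limma adjusted p = 0.0419). For miR-433* and miR-136 the HF arrays overlapped the HF+E2 arrays through HF 2 and, for miR-433*, also through HF 3.

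In unscaled intensities, none of these 4 differed between HF+E2 and HF beyond the spread of the arrays (exact permutation p between 0.34 and 0.94). The differences were 0.18, -0.03, 0.06 and 0.02 on the log2 scale for miR-412-3p, miR-376b*, miR-433* and miR-136. Over all 520 tested miRs the median unscaled difference was -0.55, and all 4 lay above it. No member was called after either quantile normalization or with the negative controls subtracted. With the controls subtracted, the log2 fold changes were 0.99, 0.52, 0.65 and 0.63 in the same order. They were smaller after quantile normalization, at 0.47, 0.25, 0.33 and 0.31 for the scaled values and 0.37, 0.23, 0.31 and 0.30 for the raw intensities. With the code of the array as a block, or within the code that HF 5 and HF+E2 1 to 3 share, the comparison rests on 1 HF array and called 0 of all 520 miRs, and the log2 fold changes were 0.97, 0.80, 0.76 and 1.02. With the code as a random block all 4 were called. With no scaling, 0 members were called higher and 14 lower, and over all 520 miRs the split was 0 and 170 with no scaling, 1 and 1 after quantile normalization of the scaled values and 58 and 5 as deposited. Leaving out any 1 of HF 1, HF 4, HF 5, HF+E2 2, HF+E2 4 or HF+E2 5 left 1 call each (2.63% of the members). Of all 520 miRs, 0.769% to 3.27% were then called higher and 0.192% to 0.962% lower. Leaving out HF+E2 3 left 2 members called higher (5.26%), against 3.65% of all miRs.

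The 8 members that rose in HF had lower means in HF+E2 than in HF, with log2 fold changes between -0.38 (miR-434-3p) and -0.09 (miR-127), and none of them was called. Their adjusted p (limma) lay between 0.137 for miR-299* and 0.752 for miR-127. miR-299* was the only member lower in HF+E2 than in HF without overlap (8.68 ± 0.22 in HF+E2 and 9.03 ± 0.11 in HF, SD, n = 5 each), with an exact permutation p of 0.0079 and a log2 fold change of -0.35. Of all tested miRs, 1.54% were lower in HF+E2 without overlap. These values use the same HF arrays as the comparison of HF with sham, and an HF array that reads high by chance raises the first and lowers the second.

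Between HF+E2 and sham, 1 member was called higher, miR-379, and 0 were called lower, against 5.19% and 3.27% of all tested miRs. It was 1 of 12 members that were not dim, against 7.06% higher and 5.49% lower of the 255 miRs measured as well. miR-379 was 1.52-fold higher in HF+E2 (log2 fold change 0.60, SE 0.18, limma adjusted p = 0.0436), with means of 8.81 ± 0.26 in HF+E2 and 8.21 ± 0.27 in sham (SD, n = 5 and 4), and 4 of 5 HF+E2 arrays lay above all sham arrays (exact permutation p = 0.0238). The call was lost, with log2 fold changes of 0.52 to 0.74 over all arrays left out in turn, without each of sham 1, sham 2, sham 3, HF+E2 1, HF+E2 2, HF+E2 4 and HF+E2 5, and it was lost with no scaling, with all mouse probes or only these 2 groups in the fit, and with the methods' t-test. The members had a median of 0.21 and all tested miRs one of -0.05, and 31 of 38 members lay above 0, against 43.1% of all miRs. At an unadjusted p under 0.05, limma placed 7 members higher and 0 lower, a count not made over all miRs. The methods' t-test called 0 members, against 2.88% higher and 2.12% lower of all tested miRs. The negative controls differed little between these groups, with a median of 0.02. miR-300 (7.62 ± 0.24 in HF+E2 and 7.11 ± 0.22 in sham) was higher and miR-665* (7.24 ± 0.22 in HF+E2 and 7.73 ± 0.14 in sham) lower without overlap (SD, n = 5 and 4), with adjusted p of 0.0536 and 0.271, and 6.54% of all tested miRs were higher and 7.5% lower without overlap.

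**Figure D5:**
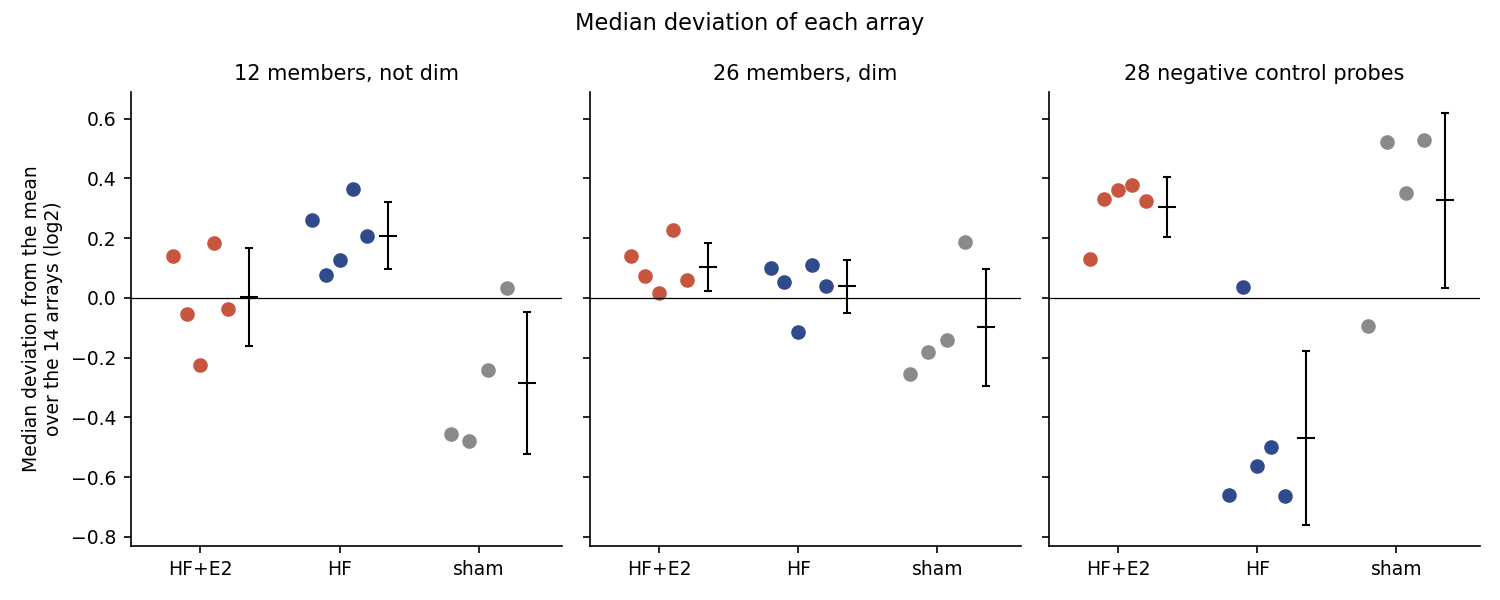
Median deviation of each array from the mean over the 14 arrays (vertical axis, log2) for the 12 members that are not dim, the 26 dim members and the 28 negative control probes, with 1 point per array and crossbars for mean and SD (n = 5, 5 and 4). For the 12 members, the HF arrays lie between 0.08 and 0.36 and the sham arrays between -0.48 and 0.03, while the negative controls run the other way between these groups.

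Array by array, the 12 members that were not dim deviated from their mean over all arrays by a median of -0.23 to 0.18 in HF+E2, 0.08 to 0.36 in HF and -0.48 to 0.03 in sham. HF and sham did not overlap in this median, and HF+E2 overlapped both. The 26 dim members gave 0.02 to 0.23 in HF+E2, -0.11 to 0.11 in HF and -0.25 to 0.19 in sham, with overlap between all groups. Once the mean of each group was removed, the 12 members had a median correlation of 0.43 over their 66 pairs and the 14 arrays (quartiles -0.08 and 0.69), against 0.03 over the pairs of the 255 miRs without dim or saturated probes. The highest values were those of miR-541 with miR-299* (0.91) and with miR-127 (0.89), which lie 201.4 and 51.9 kb from the start of Meg3, and the lowest that of miR-154 with miR-1188* (-0.67). The 12 did not all vary together. miR-341* was negative with every other member but miR-154 (0.34), and miR-667 and miR-1188*, which correlated with each other (0.70), had at most 0.17 with any of the rest. Among the dim members the median was 0.13, against 0.15 over all dim miRs. The points of these correlations share arrays, scaling constants and RNA samples, and they are given as a description.

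Of the 63 members under the threshold, 37 were above it on no array and 26 on at least 1 array, of which 9 on a single array. miR-154* was above the threshold on 2 HF+E2, 4 HF and 0 sham arrays, miR-379* on 3, 3 and 0, miR-485* on 2, 3 and 0, miR-409-5p on 1, 3 and 0, and miR-410, the last precursor of the Mirg segment, on 0, 3 and 0. miR-433 was above it on 1, 4 and 2 arrays, miR-409-3p on 1, 3 and 1, miR-540-3p on 0, 3 and 1, and miR-376c* on 2, 0 and 2. miR-323-5p, miR-667*, miR-758, miR-770-3p, miR-1193-3p, miR-539-5p, miR-543* and miR-544-3p were above it on 2 to 4 arrays, and miR-1188, miR-370, miR-485, miR-487b, miR-493*, miR-543, miR-673-3p, miR-673-5p and miR-679-5p on 1. The thresholds averaged 5.65 ± 0.14 in HF+E2, 5.21 ± 0.37 in HF and 5.64 ± 0.15 in sham (SD, n = 5, 5 and 4), so that the same scaled value passes more easily in HF. With all 1037 mouse probes in the fit, 6 of the 101 members were called higher in HF than in sham and 18 lower, and 35 were called higher and 0 lower in HF+E2 than in HF, in the direction of the negative controls. These are 5.94%, 17.8% and 34.7% of the members, close to the 4.05%, 22.1% and 28.9% of all 1037 probes.

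miRs of other imprinted loci, namely those of Mest, Igf2, H19 and the Gnas region, had 7 of 9 probes tested, with 0 called higher and 1 lower (miR-335-3p, -0.61, limma adjusted p = 0.0169) in HF vs sham, with a median of -0.23. In HF+E2 vs HF, miR-296-5p was called higher (0.51, adjusted p = 0.0419) and miR-335-5p lower (-0.77, adjusted p = 0.0085). A difference between these loci and the Dlk1-Dio3 members was not tested. Since the cluster is known from neurons, miRs typical of nerve cells were looked at, and of 6 probes 4 were tested, with 0 called higher and 1 lower (miR-219-5p, -0.70, adjusted p = 0.0056) in HF vs sham, while miR-124 was above the threshold on 3 and miR-9 on 5 of 14 arrays. Of miRs of fibroblasts and mesenchymal cells, all 4 tested were called higher in HF than in sham (miR-21 1.34, miR-214 1.19), against 8 of the 38 members. In HF+E2 vs sham, 3 of these 4 were called higher with a median of 0.92, against 1 of the 38 members with a median of 0.21. The log2 of the summed level of the 2 unsaturated ones was 13.36 to 14.24 in HF+E2, 13.92 to 14.44 in HF and 12.74 to 13.03 in sham. Of 6 miRs of white blood cells, 3 were called higher and 0 lower in HF, with a summed level of 14.70 to 15.00 in HF and 14.36 to 14.84 in sham. There were 7 miRs of cardiomyocytes, which mark the ventricle and were all above the threshold on 14 of 14 arrays. Of these, 1 was called higher (miR-208b) and 6 lower in HF, and of the 4 unsaturated ones 1 was higher and 3 lower. The other 3 (miR-1, miR-133a and miR-133b) were saturated on all arrays. They read -0.785 each, as did the saturated miR-143 of smooth muscle, so that these calls hold no measure of their levels. The part of these cell types in the result was not tested.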

How the data were processed

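LV miR levels of 14 mice were measured on single-channel arrays of miRBase 16 probes, with RNA labelled at its 3' end. The intensities that the authors deposited are 1 background-subtracted value per spot (3 spots per probe), without scaling. The deposited log2 values are the authors' log2 of the mean over the spots, shifted by a constant for each array that was set from its 20% trimmed mean. They kept the mouse probes above a threshold set on each array from negative controls. Tested on the files, all 520 were above it on every array of at least 1 group. The authors' deposited p-values, FDR and fold changes were not used. All value columns were assigned to a mouse.

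The fit of HF against sham used those 9 arrays, and both fits of HF+E2 used all 14, with limma 3.58.1 (lmFit and eBayes, R 4.3.3) on the scaled values. The number of arrays limits the precision. A spot was taken as saturated at 65000 or more, and a probe with at least 2 of its 3 spots saturated. Single members were also compared with exact permutation tests, two-sided. The fit was tested on simulated data. Mice with the same number in different groups were not paired. Every tested member could be named, with values by array for those called in any comparison and for their opposite arms. The members and all lists were chosen with earlier results of these data known. Positions are those of RefSeq. Figures were drawn with matplotlib 3.10.9.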

Additional observations from a re-analysis of the deposited data

Results flagged for a closer look

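The value of miR-379 on sham 4 was 8.62, far from the other 3 sham arrays, which lay between 8.04 and 8.11. It was the only such value among 45 groups of arrays (15 members in 3 groups), of which chance marks about 1 in 20. Without sham 4 the log2 fold change of miR-379 between HF and sham was 1.01, against 0.87 with it.

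Of the members under the detection threshold, which enter no comparison, 15 were above it on 0 sham arrays and on at least 1 other array, and 5 of them on at least 3 arrays of 1 group. miR-154* was above it on 4 HF arrays, and miR-379*, miR-485*, miR-409-5p and miR-410 on 3 HF arrays each. The thresholds were lower on the HF arrays (5.21 ± 0.37, SD, n = 5) than on the sham arrays (5.64 ± 0.15, SD, n = 4), and their part in these counts was not tested.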

How the results depend on the processing

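The median log2 fold change of the members between HF and sham was 0.29 as deposited. It was 0.46 with the 75th percentile of all probes, 0.46 with the negative controls subtracted, 1.07 with no scaling and 0.50 with only the miRs neither saturated nor dim. With all mouse probes in the fit it was -0.37, over 101 members of which 63 are under the threshold. Taken relative to the median of all tested miRs, which moved to 0.66 with no scaling, it was 0.42 as deposited, 0.41 with no scaling and 0.03 with all mouse probes in the fit. Of the members, 17 were called with the 75th percentile of all probes, 3 with that of the detected probes, 26 with no scaling, 24 with all mouse probes, 4 with the miRs neither saturated nor dim, 6 with the methods' t-test and 16 without HF 2 (coded 650). The 4 with the miRs neither saturated nor dim were higher, 33.3% of the members there, against 11.8% higher and 7.06% lower of all 255. With the t-test 4 members were higher and 2 lower (10.5% and 5.26%), against 6.73% and 13.5% of all 520 miRs. Leaving out 1 array gave 3 to 16 members and medians of 0.22 to 0.41. Of all 520 miRs, 33 to 45 were then called higher and 66 to 123 lower.

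Between HF+E2 and HF, 0 members were called after each quantile normalization, with the miRs neither saturated nor dim and with the negative controls subtracted. It was also 0 with the code group as a block and within the code group shared by HF and HF+E2, where HF is 1 array and 0 of all 520 miRs were called, and it was 4 with the code group as a random block. With the 75th percentile of all probes and with the methods' t-test it was 1, with only these 2 groups in the fit 2, without HF 2 and HF+E2 1 (both coded 650) 7, with no scaling 14 and with all mouse probes 35. The 14 with no scaling were lower and the rest higher. In this order they were 2.63%, 2.63%, 5.26%, 18.4%, 36.8% and 34.7% of the members in the fit. Of all miRs in the fit, 2.12%, 0.769%, 3.27%, 20%, 32.7% and 28.9% were called in the same direction. The median was 0.16 with the 75th percentile of the detected probes, -0.64 with no scaling, 0.35 with all mouse probes and -0.17 with the miRs neither saturated nor dim, against -0.03 as deposited. Leaving out 1 array gave 1 to 6 members and medians of -0.08 to 0.02. Of all 520 miRs, 4 to 74 were then called higher and 1 to 13 lower.

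Between HF+E2 and sham, 2 members were called after each quantile normalization, with the code group as a random block and with the negative controls subtracted, and 3 with the 75th percentile of all probes. All of these were higher in HF+E2. They are 5.26% and 7.89% of the members, against 5.38% to 6.54% and 6.92% of all miRs called higher. The count was 0 with no scaling, with all mouse probes, with the methods' t-test, with only these 2 groups in the fit and without HF 2 and HF+E2 1. Of all miRs in these fits, 1.64% to 5.19% were called higher and 0% to 2.69% lower. The median was 0.35 with the 75th percentile of the detected probes and 0.38 with no scaling, against 0.21 as deposited. Leaving out 1 array gave 0 to 3 members and medians of 0.15 to 0.34. Of all 520 miRs, 17 to 31 were then called higher and 9 to 20 lower.

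With no scaling, the log2 fold change of miR-376b* was 0.19 between HF and sham and -0.031 between HF+E2 and HF, and that of miR-412-3p between HF and sham was 0.070. The median over all tested miRs was then 0.66 between HF and sham and -0.55 between HF+E2 and HF. With a replicate block, 12, 4 and 1 members were called in the 3 comparisons, and the labels tie no number to a litter or day. The deviations of 13 same-numbered pairs correlated at -0.30 to 0.46, and 7 of 14 arrays were closest to their own number. A code group as a fixed block could not be fitted where sham enters, since sham has a code of its own. The negative control, random block and 650 settings were chosen after seeing the data. Where a value moved, the cause was not tested.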
